A study of Mus musculus with 2 samples.

Results

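Malat1, Neat1, Gas5, Snhg6, Snhg8 and Snhg12 are long non-coding RNAs that were chosen by gene symbol. Of these 6 genes, 4 (Malat1, Neat1, Snhg6 and Snhg12) had a row among the 31053 features counted in both libraries. Gas5 and Snhg8 matched no row by symbol or gene ID and have no value analysed here. In the GENCODE M21 annotation both are typed as processed transcripts, a class with 10 of 790 genes among the features, whereas the 4 measured genes are typed as lincRNA, with 5459 of 5854 genes among them.

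The data were 2 single-cell libraries of cells labelled cd11b+ from mouse gut lamina propria, 1 from WT mice and 1 from mice labelled LncRNA17Rik knockout (KO). The study made the knockout with CRISPR-Cas9 in the C57BL/6J background and pooled young adult male mice before sorting, so that each genotype was 1 library and no test between genotypes was possible. All intervals below are exact 95% intervals that cover counting error only. They leave out the spread between cells, between mice and between libraries, also where they are said to overlap or to be apart. The label LncRNA17Rik matched no feature symbol, and the deletion was not checked here.

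Malat1 and Neat1 are nuclear RNAs transcribed from neighbouring genes. Malat1 accumulates in nuclear speckles, bodies rich in splicing factors, and Neat1 is the scaffold on which paraspeckles assemble. Gas5, Snhg6, Snhg8 and Snhg12 are host genes whose introns carry small nucleolar RNAs, the guides for chemical modification of ribosomal RNA, and the spliced transcripts of such genes often begin like those of ribosomal protein genes and are short-lived where nonsense-mediated decay is active. Nuclear RNA is retained when a damaged cell loses cytoplasm, which is why the nuclear members are commonly read beside the mitochondrial share of a barcode.

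In GRCm38 (the mm10 build), Malat1 (ENSMUSG00000092341) lies at chr19:5795690-5802672 on the minus strand and Neat1 (ENSMUSG00000092274) at chr19:5824708-5845478 on the same strand, 22035 bases away. The longest annotated transcript of each has a single exon, of 6983 bases for Malat1 and 20771 bases for Neat1. Snhg6 (ENSMUSG00000098234) lies at chr1:9941959-9944118 on the minus strand, with 3 exons in its longest transcript of 816 bases, and its exons overlap exons of the protein-coding gene Mcmdc2 on the opposite strand. Snhg12 (ENSMUSG00000086290) lies at chr4:132308623-132311024 on the plus strand, with 4 exons in its longest transcript of 1538 bases. Gas5 (ENSMUSG00000053332) lies at chr1:161034422-161038539 and Snhg8 (ENSMUSG00000104960) at chr3:123507552-123508404.

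The primers of the assay anneal to poly(A) tails and can also anneal to runs of A within a transcript. Whether the RNAs of each member carried a tail was not analysed here. The longest run of A in the longest GENCODE M21 transcript of each measured member is therefore shown in capitals within 30 exonic bases, 5′ to 3′ on the transcript strand, at chr19:5795979-5796008 for Malat1, chr19:5832893-5832922 for Neat1, chr1:9942326-9942355 for Snhg6 and chr4:132309126-132309155 for Snhg12.
Malat1: cctagctttAAAAAAAAAAAAgcaaaagac
Neat1: ggaaccattagAAAAAAAcgttaaatcatt
Snhg6: gctgtgatgtctAAAAAccctttattgttt
Snhg12: taaagccttAAAAAAAAAAAAgtcaggata
Malat1 and Snhg12 each held 1 run of at least 10 A (12 A in both cases, 298 and 1067 bases before the annotated 3′ end), and Neat1 and Snhg6 held none, with longest runs of 7 and 5 A. A run of that length occurred in 7.18% of the 141767 annotated transcripts. Where the UMIs of each gene were primed was not analysed here, so counts were compared between cells for 1 gene and not between genes.

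After barcodes with fewer than 200 or more than 6000 genes or over 15% mitochondrial UMIs were removed, 2597 of 3185 WT and 2514 of 3020 KO barcodes were kept, with a median of 5073 and 6564.5 UMIs. 1 barcode sequence occurred in both libraries. Itgam, which encodes the CD11b of the label, had a UMI in 40.0% of WT and 57.8% of KO cells. Groups named from lymphoid, epithelial or fibroblast markers made up 34.9% of WT and 11.1% of KO cells. Of 22 clusters, 4 stayed unnamed, and 8 groups with at least 50 cells in each library were compared: inflammatory monocyte-like, resident macrophage-like, cDC1-like, cDC2-like, neutrophil-like, T cell-like and B cell-like cells, and an unnamed cluster of 226 WT and 410 KO cells led by Serpinb2, Retnlg and Ccr3, in which 3 of 8 eosinophil and 3 of 8 neutrophil markers were raised.

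Malat1 was detected in nearly every cell and differed less between the 8 cell groups than the other members did. It had a UMI in 98.4% of WT and 98.9% of KO cells, and its level was 16769 UMIs per 1000000 UMIs (CPM) in WT and 16945 CPM in KO, 1.01-fold apart. Among the 8 groups the level ran in the WT library from 14986 CPM in cDC1-like to 24596 CPM in neutrophil-like cells, a 1.64-fold span, and in the KO library from 12204 CPM in inflammatory monocyte-like cells to 26028 CPM in the unnamed Serpinb2, Retnlg and Ccr3 cluster, a 2.13-fold span. In both libraries inflammatory monocyte-like, cDC1-like and cDC2-like cells held the 3 lowest levels. The 3 intervals overlapped in WT (15181, 14986 and 15236 CPM) and were apart in KO (12204, 15691 and 14296 CPM). B cell-like and T cell-like cells lay above them in WT (20151 and 19331 CPM) and in KO (23036 and 22982 CPM), with overlap in KO between these and neutrophil-like cells (23134 CPM).

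Among the 8 groups Neat1 was highest in neutrophil-like cells and lowest in B cell-like and T cell-like cells in both libraries. Neutrophil-like cells had 1241 CPM in WT (1097 to 1398) and 1687 CPM in KO (1607 to 1770). T cell-like cells had 210 CPM in WT and 265 CPM in KO, and B cell-like cells had 203 CPM and 140 CPM, so that the span from highest to lowest group was 6.11-fold in WT and 12.1-fold in KO. The macrophage and dendritic groups lay between. Resident macrophage-like cells had 543 and 534 CPM in WT and KO, cDC1-like cells 551 and 589 CPM, and cDC2-like cells 626 and 582 CPM. In WT the unnamed cluster (594 CPM) overlapped cDC2-like and cDC1-like cells, whereas in KO it stood second, at 1281 CPM (1180 to 1388), apart from both neighbours in the order.

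The snoRNA host genes followed another order over these groups, with low levels in neutrophil-like cells and in the unnamed cluster. Snhg6 was highest in cDC1-like cells, at 74.9 CPM in WT (61.2 to 90.8) and 87.6 CPM in KO (79.6 to 96.2). It gave 2 UMIs in the 82 WT and 5 UMIs in the 276 KO neutrophil-like cells, or 9.26 and 5.10 CPM. The resident macrophage, monocyte, cDC2, T cell-like and B cell-like groups lay at 39.9 to 53.1 CPM in WT and 37.7 to 63.6 CPM in KO, where the intervals of neighbours overlapped.

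Snhg12 was highest in B cell-like cells, at 118 CPM in WT (95.2 to 144) and 170 CPM in KO (132 to 216), followed by T cell-like cells, at 86.4 and 96.1 CPM. The B and T cell-like intervals overlapped in WT and were apart in KO. cDC1-like cells came next, with 62.0 and 59.1 CPM, and the other groups were at or below 46.4 CPM. In neutrophil-like cells Snhg12 had 6 UMIs in WT and 9 UMIs in KO (27.8 and 9.18 CPM), and in the unnamed cluster 6 and 5 UMIs (21.4 and 10.8 CPM).

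**Figure D1:**
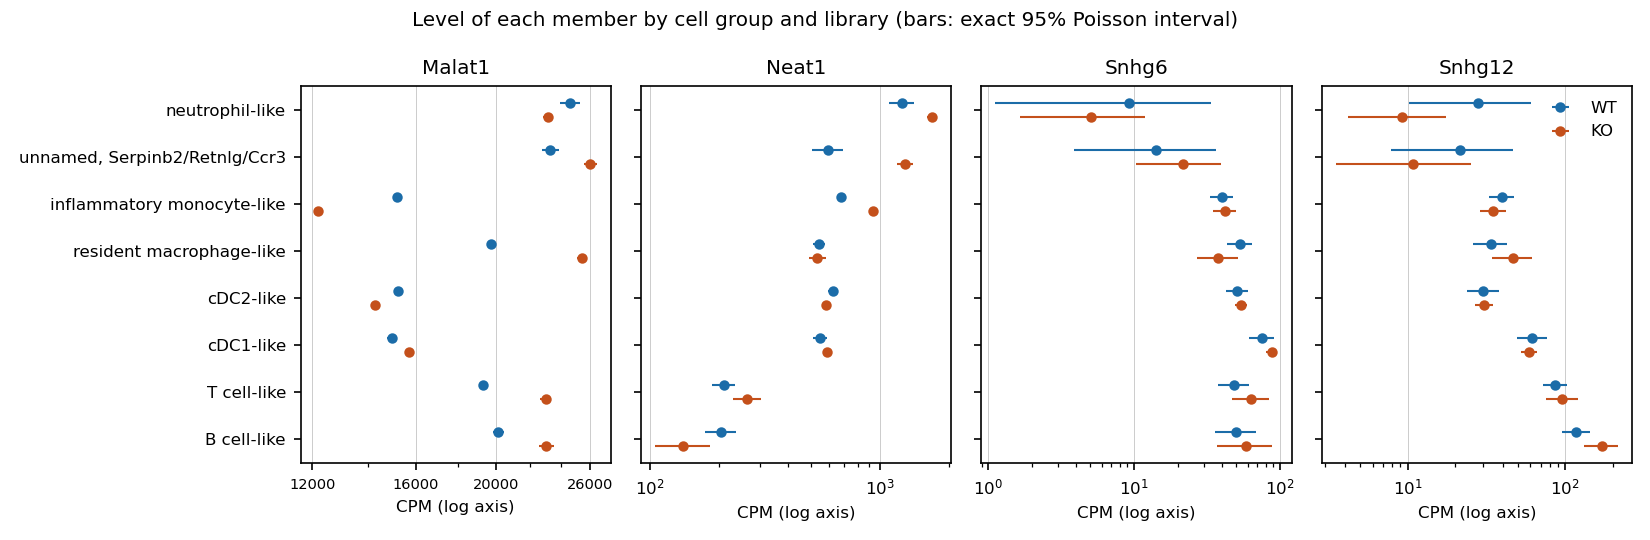
Level of the 4 measured members in 8 cell groups, in CPM on log axes, with WT in blue and KO in orange; bars are exact Poisson intervals for counting error. Neat1 runs from 203 and 140 CPM in B cell-like cells to 1241 and 1687 CPM in neutrophil-like cells, while Snhg12 runs the other way, with 118 and 170 CPM in B cell-like cells.

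Cells differed in depth, so the share of cells with a UMI was also taken after every cell was thinned to 2000 UMIs and shallower cells were left out. In thinned neutrophil-like cells Neat1 was found in 81.1% of 53 WT cells (68.0 to 90.6%) and 89.1% of 248 KO cells (84.6 to 92.7%). In B cell-like cells the thinned share was 29.4% of 170 WT and 20.2% of 84 KO cells, and in T cell-like cells 30.3% of 238 and 32.4% of 108. Before thinning the same cells gave 88.7% and 96.0% in the neutrophil-like group, 41.2% and 42.9% in the B cell-like group, and 57.6% and 57.4% in the T cell-like group. Neutrophil-like cells were thus apart from both lymphocyte groups at equal depth too. Inflammatory monocyte-like cells had thinned shares of 65.6% in WT (60.9 to 70.2%) and 76.9% in KO (72.0 to 81.3%). Their interval overlapped that of neutrophil-like cells in WT and was apart from it in KO. The thinned shares of the resident macrophage-like, cDC1-like and cDC2-like groups, 63.4%, 61.1% and 62.9% in WT and 60.9%, 58.0% and 64.9% in KO, had overlapping intervals in each library and did not keep the order of their CPM.

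Snhg6 was found in 11.1% of 108 WT and 13.5% of 288 KO cDC1-like cells after thinning (47.2% and 61.8% unthinned), against 0.403% of 248 KO neutrophil-like cells (2.02% unthinned). Snhg12 was found in 23.5% of WT and 19.1% of KO B cell-like cells and in 14.3% of WT and 24.1% of KO T cell-like cells after thinning. The intervals of these 4 shares overlapped within each group, and these thinned levels are near that of 1 UMI. No cell type that lacks these RNAs was at hand as a background. For both genes the lowest named group in KO was the neutrophil-like one, with 1.81% of cells positive for Snhg6 and 3.26% for Snhg12 at a median of 3026 UMIs. The unnamed cluster had only 25 WT and 27 KO cells of 2000 UMIs or more and was left out of the thinned comparison.

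**Figure D2:**
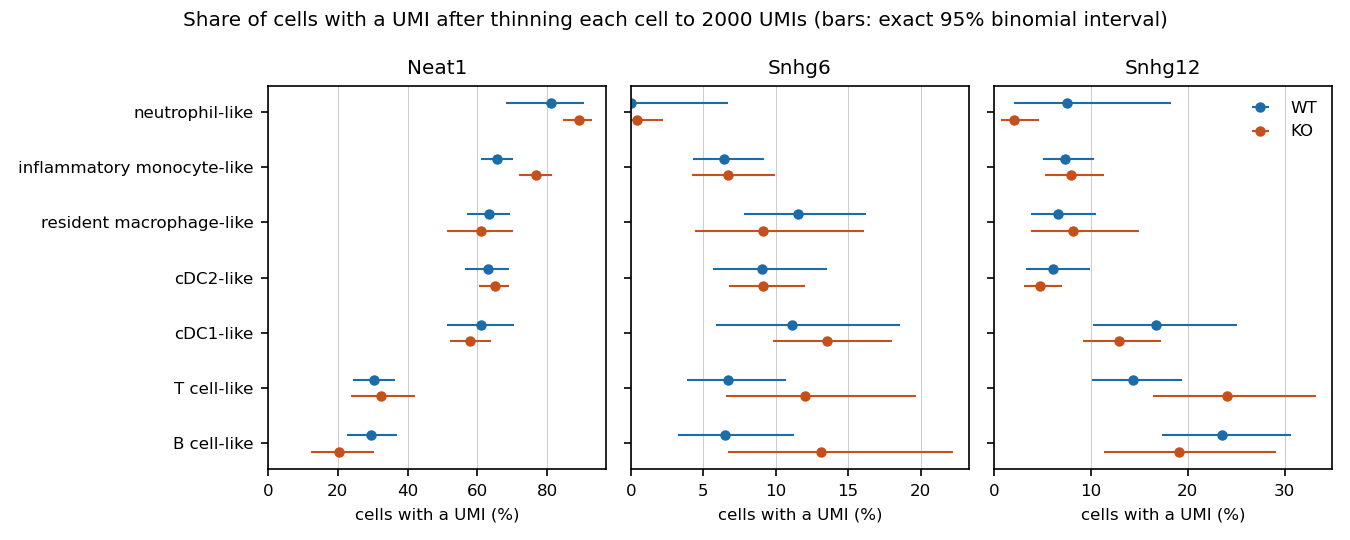
Share of cells with at least 1 UMI of Neat1, Snhg6 and Snhg12 after each cell was thinned to 2000 UMIs, in percent, for the 7 named groups, with WT in blue and KO in orange and exact binomial intervals. Neat1 is most often found in neutrophil-like cells (81.1% and 89.1%), and the largest Snhg12 share is 24.1%, in KO T cell-like cells.

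The comparison of KO with WT asked whether the level of these RNAs differed between genotypes, within cell groups and over all cells. A gene was called when it differed at least 2-fold with an interval that left out equality. Over all kept cells none of the 4 members was called, while 23.5% of the 14006 genes with enough UMIs were (4.59% higher and 18.9% lower in KO). Neat1 rested on 8594 WT and 14634 KO UMIs, or 452 and 655 CPM, which differ by 0.53 (0.50 to 0.57) on the log2 scale. Snhg6 was 51.0 and 57.3 CPM, a log2 difference of 0.17 (0.05 to 0.29). Snhg12 was 43.8 and 41.2 CPM, with a log2 difference of -0.09 whose interval (-0.22 to 0.05) held 0. The median log2 difference of all genes was -0.24, so that relative to it the 4 members lay 0.25 (Malat1), 0.77 (Neat1), 0.41 (Snhg6) and 0.15 (Snhg12) higher.

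The pooled Neat1 difference was smaller without some cell groups. Plasma cell-like cells, with 152 CPM of Neat1 in WT, numbered 234 in WT and 5 in KO, and without plasma, epithelial and fibroblast-like cells the log2 difference was 0.28. With each cell group weighted equally it was 0.22. The part of the makeup of the libraries in the pooled difference was not tested further. The Malat1 difference was -0.090 and 0.067 under the same settings.

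**Figure D3:**
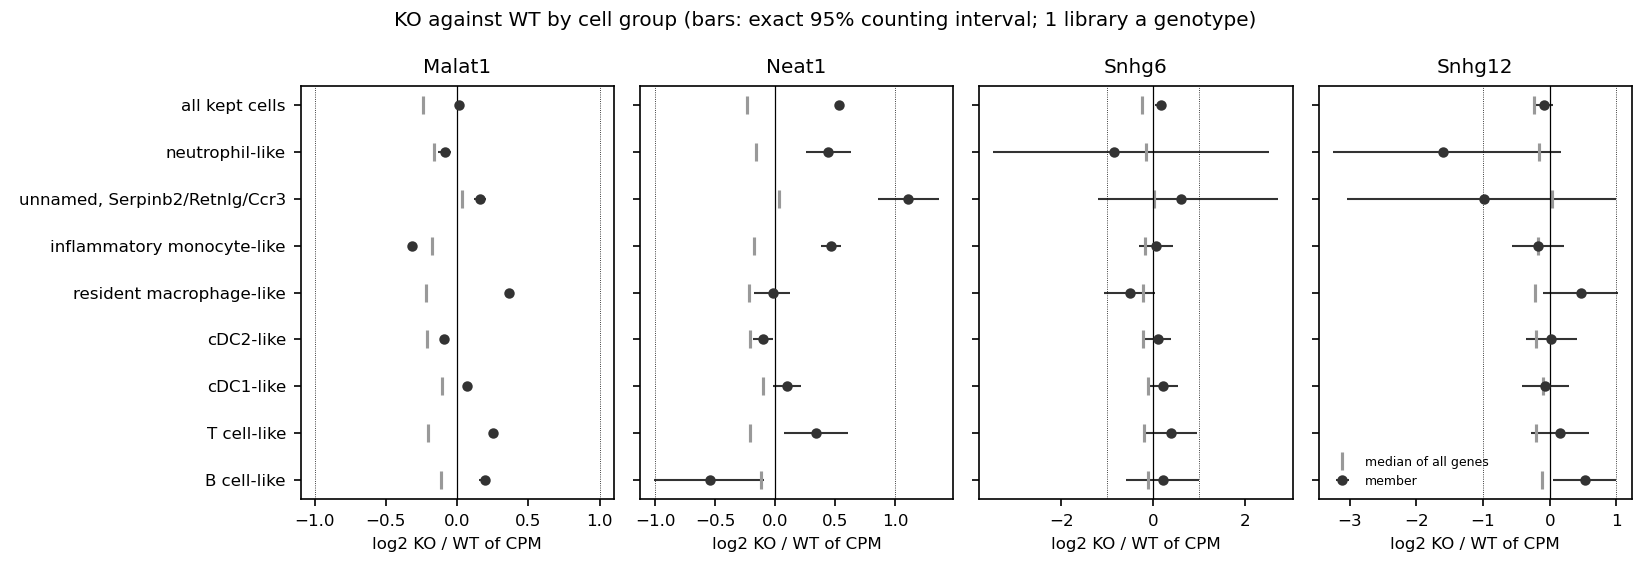
Log2 ratio of KO to WT for the 4 measured members over all kept cells and in 8 cell groups; points are ratios of CPM, bars exact counting intervals, grey ticks the median of all genes in that group, and dotted lines mark 2-fold. The single member past 2-fold with an interval that leaves out 0 is Neat1 in the unnamed Serpinb2, Retnlg and Ccr3 cluster, at 1.11.

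Within cell groups the single call was Neat1 in the unnamed Serpinb2, Retnlg and Ccr3 cluster. It rose from 594 to 1281 CPM (167 UMIs in 226 cells to 594 UMIs in 410 cells), a log2 difference of 1.11 (0.86 to 1.36), in a cluster where 6.29% of 4260 genes were called higher and 14.1% in either direction. Of the WT cells 40.7% had a Neat1 UMI, and of the KO cells 64.6%. After thinning to 1000 UMIs the share was 47.6% of 84 WT cells (36.6 to 58.8%). In KO it was 62.5% of 200 cells (55.4 to 69.2%), and the intervals overlapped. The median cell held 798.5 UMIs in WT and 971 UMIs in KO. In the same cluster the ribosomal protein genes made up 8.66% of UMIs in WT and 5.19% in KO, 22 of 82 of them were called lower (7.77% of all genes were), the median mitochondrial share was 3.61% and 4.93%, and Gm42418, a gene that overlaps ribosomal RNA repeats, was 39318 and 6259 CPM. The part of these in the Neat1 difference was not tested.

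Neat1 was also higher in KO, without being called, in inflammatory monocyte-like cells (678 and 935 CPM, 0.46, 0.38 to 0.55), where 11.8% of genes were called, and in neutrophil-like cells (0.44, 0.26 to 0.64), where 13.1% were. The median mitochondrial share of neutrophil-like cells was 1.38% in WT and 0.697% in KO, and its part in the difference was not tested. In T cell-like cells the log2 difference was 0.34 (0.07 to 0.60), where 15.8% of genes were called, and within both of its clusters the interval held 0 (0.26, -0.09 to 0.60 and 0.43, -0.03 to 0.88). In B cell-like cells, where 9.77% were called, it was -0.54 (-1.01 to -0.09), from 162 UMIs in WT and 55 UMIs in KO. It was -0.10 in cDC2-like cells (-0.19 to -0.02), where 11.9% of genes were called. In this group the sign turned with each library clustered alone (0.016) and as a mean over cells (0.078). This group held a cluster led by Mgl2 and Ccl17 with 3 WT and 140 KO cells, and within its other cluster, led by Plet1 and Tbc1d4, the interval held 0 (-0.04, -0.12 to 0.05). In resident macrophage-like cells (-0.02, -0.17 to 0.13), with 11.6% of genes called, and cDC1-like cells (0.10, -0.02 to 0.21), with 5.51% called, the intervals held 0. The cDC1-like cluster led by Pclaf and Hist1h2ae had 0.29 (0.10 to 0.49) and the one led by Xcr1 and Clec9a -0.05 (-0.19 to 0.10).

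Malat1 counts were large enough that every one of its group intervals left out 0, although the differences were at most 1.29-fold. The spread of Malat1 between cells is not part of these intervals. Resident macrophage-like cells went from 19749 CPM in WT to 25424 CPM in KO (0.36, 0.34 to 0.39), and their median mitochondrial share from 3.81% to 5.58%. T cell-like cells differed by 0.25 (0.22 to 0.28) and B cell-like cells by 0.19 (0.16 to 0.23). Within both T cell-like clusters the Malat1 difference was smaller, at 0.14 (0.10 to 0.17) in the one led by Gzma and Cd3g (170 WT and 63 KO cells) and 0.16 (0.12 to 0.21) in the one led by Icos and Rora (72 and 47 cells), whose WT levels were 17913 and 23916 CPM. Inflammatory monocyte-like cells went the other way, from 15181 to 12204 CPM (-0.31, -0.33 to -0.29), with a median depth of 5234 UMIs in WT and 9098.5 UMIs in KO. With each library clustered alone the Malat1 difference was 0.09 in resident macrophage-like and -0.25 in monocyte-like cells. It was 0.04 in T cell-like cells and turned to -0.03 in B cell-like cells.

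Different clusters held most of the monocyte-like group in the 2 libraries. A cluster led by Ly6i and Cxcl9 had 502 of the 549 WT cells, and one led by Chil3 and Ace had 256 of the 368 KO cells. Within the first, Malat1 was 15382 CPM in WT and 14091 CPM in KO (-0.13, -0.16 to -0.09), and within the second 12886 and 11389 CPM (-0.18, -0.24 to -0.12). In the remaining 16 WT and 38 KO cells of the group it was 14802 and 16321 CPM (0.14, 0.06 to 0.22). Neat1 was 673 and 919 CPM in the first cluster (0.45, 0.30 to 0.60), in the second 836 and 954 CPM (0.19, -0.03 to 0.42), and in the remaining cells 507 and 784 CPM (0.63, 0.20 to 1.08).

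For Snhg6 none of the 8 group intervals left out 0, and for Snhg12 the one that did was that of B cell-like cells (94 UMIs in WT and 67 UMIs in KO, 0.53, 0.06 to 1.00). Under alternative processing the B cell-like value ran from 0.0030 to 0.53. In neutrophil-like cells and in the unnamed cluster both genes had fewer UMIs than the minimum of 20, and a difference was not detectable at this depth.

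Within single clusters some host gene intervals left out 0. In the Ly6i and Cxcl9 cluster of the monocyte-like group Snhg12 was 36.8 CPM in WT (96 UMIs) and 73.5 CPM in KO (36 UMIs). Its log2 ratio of 0.99955 (0.40 to 1.57) lay just under the 2-fold limit for a call. Snhg6 was 40.2 and 67.4 CPM there (0.74, 0.13 to 1.32), also under that limit. In the Chil3 and Ace cluster both intervals held 0 (-0.63, -1.64 to 0.57 for Snhg12 and 0.03, -1.01 to 1.28 for Snhg6). Snhg6 was 0.57 (0.16 to 1.01) in the cDC1-like cluster led by Xcr1 and Clec9a and -0.24 (-0.71 to 0.26) in the one led by Pclaf and Hist1h2ae. In the T cell-like cluster led by Icos and Rora, 8 of 8 T cell and 7 of 8 innate lymphoid cell markers were raised. Snhg6 had 6 UMIs there in WT and 18 UMIs in KO, a ratio of 1.60 (0.21 to 3.22). This ratio passed the limits for a call, as did 4.54% of genes there in the same direction. It was 0.34 (-0.34 to 0.99) in the other T cell-like cluster. These clusters were singled out after their values were seen.

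Malat1 and Neat1 were higher over all barcodes above the limit of 15% mitochondrial UMIs than over those with a low share. To keep the mitochondrial UMIs out of the total, levels were taken here as CPM of non-mitochondrial UMIs. Over all deposited barcodes Malat1 was 17975, 16788, 16695 and 19880 CPM in WT barcodes with a mitochondrial share of 0 to 2.5%, 2.5 to 5%, 5 to 10% and 10 to 15%, and 33953 CPM above 15%. In KO it was 16459, 16441, 23454 and 37897 CPM in the same bins, and 77803 CPM above 15%. The barcodes above 15% were 562 in WT, with a median share of 55.8%, and 499 in KO, with a median share of 30.1%, so that this bin held different barcodes in each library. Neat1 went from 444 to 937 CPM in WT and from 844 to 2573 CPM in KO between the lowest and the highest bin, with lower values of 433 and 580 CPM at a share of 2.5 to 5%. Above a share of 60% it was 500.1 CPM in WT (352 to 689) and 983 CPM in KO (562 to 1597). Across single barcodes Spearman's rho between Neat1 and the mitochondrial share was -0.03 in WT and 0.01 in KO. For Malat1 it was 0.14 and 0.32.

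Snhg6 did not share this pattern. It was 39.7 CPM in the lowest and 38.6 in the highest bin in WT (54.7 and 66.0 between 2.5 and 10%), and 50.3 and 18.2 CPM in KO. Snhg12 was higher in the highest bin, at 54.3 beside 37.9 CPM in WT, where the intervals overlapped, and 71.1 beside 35.8 CPM in KO, where they did not.

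Above 15% the level did not rise steadily. In WT Malat1 was 31329 CPM at a share of 15 to 30%, 41490 at 30 to 60% and 27088 above 60%, where the 274 barcodes had a median of 149 genes. In KO it was 75389, 90221 and 39449 CPM, and the 86 barcodes above 60% had a median of 117.5 genes. Barcodes with no Malat1 UMI at all made up 15.6% of the 588 removed WT barcodes and had a median mitochondrial share of 90.5% and 102 genes. In KO they made up 6.52% of the 506 removed barcodes, with a median share of 82.6% and 85 genes. Among kept cells 1.62% in WT and 1.11% in KO had none, with median shares of 1.86% and 1.98% and median depths of 830 and 930 UMIs. The low number of genes in the removed barcodes limits detection, so that 0 UMIs there does not show absence of the RNA.

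The difference across the 15% limit was also seen between barcodes of like depth. Among barcodes with 500 to 1000 non-mitochondrial UMIs, Malat1 was 20718 CPM in the 337 WT barcodes at or under the limit and 56585 CPM in the 81 over it, 2.73-fold, and 32873 and 91648 CPM in KO, 2.79-fold. Over the 4 depth bins from 500 to 10000 UMIs the fold ran from 1.73 to 2.73 in WT and from 2.79 to 3.28 in KO. The KO bin from 5000 to 10000 UMIs had 4 barcodes over the limit, and without it the KO range was the same. Below 500 non-mitochondrial UMIs the Malat1 fold was lower, at 1.32 in WT and 1.47 in KO. That bin held 24 WT and 22 KO barcodes at or under the limit, and 260 and 144 over it. For Neat1 the fold ran from 1.01 to 2.99 over the 4 bins from 500 to 10000 UMIs of both libraries. For Snhg12 it ran from 0.926 to 1.59 in WT and, without the KO bin of 4 barcodes, from 1.73 to 2.09 in KO. The Snhg12 intervals at or under the limit and over it overlapped in every one of these bins. Snhg6 had at most 5 UMIs on either side of the limit in the bin from 500 to 1000 UMIs, and its folds there are not given. From 1000 to 10000 UMIs its fold ran from 0.978 to 1.62 in WT. Without the KO bin of 4 barcodes it was 0.369 and 0.897 in KO. Over the limit these bins held at most 12 Snhg6 UMIs, and the intervals overlapped in each.

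Within cell groups the pattern differed by type. In WT monocyte-like cells Malat1 was 13415 CPM of non-mitochondrial UMIs at a share of 2.5 to 5% and 47288 in the 29 cells at 10 to 15%, and in KO 11973 and 52292, the latter from 16 cells. Resident macrophage-like cells went from 18890 to 39799 in WT, with 17 cells in the upper bin, and from 27951 to 31989 in KO, with 18. The part of the mitochondrial share in the KO to WT difference of this group was not tested. WT T cell-like cells went the other way, from 28790 below 2.5% to 20974 at 2.5 to 5% and 15902 at 5 to 10%.

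**Figure D4:**
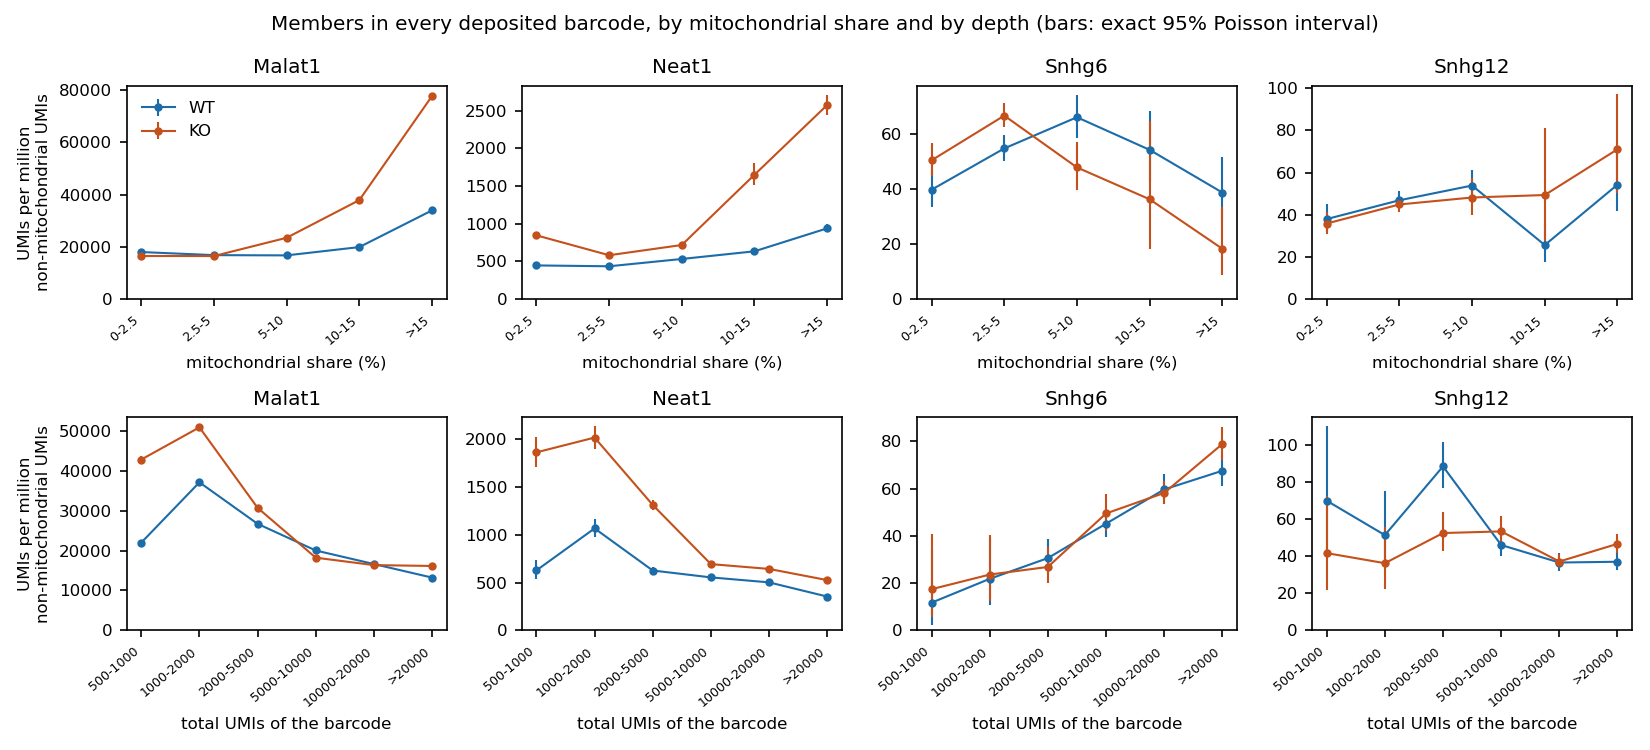
The 4 measured members in every deposited barcode, as CPM of non-mitochondrial UMIs, by mitochondrial share (upper row, percent) and by total UMIs of the barcode (lower row), with WT in blue and KO in orange and exact Poisson intervals. Malat1 reaches 33953 in WT and 77803 in KO above a 15% share, and Snhg6 climbs with depth from 11.7 to 67.6 in WT and from 17.4 to 78.9 in KO.

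Pooled levels also differed by the depth of the barcode. Malat1 was 37206 CPM of non-mitochondrial UMIs in WT barcodes with 1000 to 2000 UMIs and 13243 in those over 20000, and 51040 and 16169 in KO. Snhg6 went the other way, from 11.7 CPM in WT barcodes with 500 to 1000 UMIs to 67.6 over 20000, and from 17.4 to 78.9 in KO. Among kept cells, shallow ones were often of the unnamed cluster and the neutrophil-like group and deep ones of the dendritic and plasma cell-like groups. The bins also held removed barcodes over the mitochondrial limit, which were given no cell type. At 1000 to 2000 non-mitochondrial UMIs, Malat1 was 29015 CPM in WT barcodes at or under that limit and 67418.5 CPM over it. In KO it was 29453 and 90935.5 CPM. Depth, cell type and mitochondrial share thus cannot be told apart in these pooled bins. Across single cells of 1 group and library, Spearman's rho between the mitochondrial share and Malat1, as CPM of non-mitochondrial UMIs, lay between -0.24 and 0.22 and was positive in 11 of 16 sets of cells. As CPM of all UMIs it lay between -0.26 and 0.20 and was positive in 9. The rho of the former level with total UMIs lay between -0.43 and 0.32 and was positive in 7. For Neat1, as CPM of non-mitochondrial UMIs, the rho with the mitochondrial share lay between -0.13 and 0.22. It was positive in 14 of the 16 sets. These correlations describe cells of 1 library that share depth and sparse counts.

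Genes whose levels followed those of the members most closely were ranked over 16 profiles (8 groups in each library) by Pearson's r of log2(CPM + 10), among 6906 genes with at least 500 UMIs. Profiles of 1 library share their preparation and depth, and the coefficients are descriptions. For Malat1 the closest were Neurl3 (r = 0.88), an E3 ubiquitin ligase gene, Stxbp5 and Lrif1 (both 0.84). For Neat1 they were Nfam1 (0.97), a receptor with an immunoreceptor activation motif, Card19 and Snx10 (both 0.96). For Snhg6 they were Naca (0.96), which encodes a subunit of the nascent polypeptide-associated complex, Hspe1 and Ppp1r14b (both 0.95). For Snhg12 they were Rbm10 (0.94), Nop56 (0.94), a core protein of box C/D snoRNPs, and Ehmt1 (0.94).

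The members themselves did not share a pattern. Neat1 and Snhg12 ran in opposite order over the 16 profiles (r = -0.92), as did Neat1 and Snhg6 more weakly (-0.63), while Snhg6 and Snhg12 had r = 0.69, which ranked 1012 among the 6906 genes for Snhg6 and 847 for Snhg12. Malat1 and Neat1, the neighbouring nuclear genes, had r = -0.04. Over the same profiles the ribosomal protein share of UMIs had a Spearman's rho of 0.83 with Snhg6, 0.79 with Snhg12, -0.72 with Neat1 and -0.49 with Malat1.

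Genes related to the members by function were described from fixed lists, over all kept cells, beside the 4.59% of genes called higher and 18.9% called lower. Of 16 other snoRNA host genes 5 had a row and 4 enough UMIs, and 2 of the 4 were called lower in KO. These were Snhg9, from 1137 to 477 UMIs (-1.49, -1.64 to -1.33), and Snhg18, from 561 to 87 UMIs (-2.92, -3.27 to -2.59). Epb41l4aos (-0.30) and Snhg20 (-0.27) were not called. Snhg18 stayed under the minimum of 20 UMIs in each of the 8 groups, with at most 10 UMIs in a library. The makeup of the libraries, such as 80 WT and 21 KO fibroblast-like cells, moved with its pooled value, and its part was not tested.

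Snhg9 was called lower in each of the 8 groups, whereas Snhg6 and Snhg12 were called in none. Among myeloid groups it was -1.82 in inflammatory monocyte-like cells, where 8.91% of all genes were called lower, -1.35 in resident macrophage-like (8.03%), -1.40 in cDC2-like (8.45%), -1.40 in cDC1-like (2.92%) and -2.12 in neutrophil-like cells (9.7%). It was -1.72 in the unnamed Serpinb2, Retnlg and Ccr3 cluster (7.77%). In lymphocytes it was -1.70 in T cell-like (11.4%) and -1.16 in B cell-like cells (8.14%). The counts behind these ranged from 13 UMIs in KO T cell-like cells to 176 UMIs in WT monocyte-like cells. Snhg9 values within clusters were not taken.

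Of 18 other named long non-coding RNAs 12 were tested, with 1 called higher and 4 called lower. Mir155hg, the host gene of the inflammatory microRNA miR-155, rose from 24.1 to 115 CPM (2.26, 2.12 to 2.41). Meg3 (-2.05), Ftx (-2.09), Miat (-1.43) and Dnm3os (-1.06) were called lower, from 433, 76, 16 and 48 UMIs in WT to 123, 21, 7 and 27 in KO. None of these 4 reached 20 UMIs in any of the 8 groups, so that their pooled values were not seen within a cell group. Kcnq1ot1, the list member with the most UMIs, differed by 0.49.

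Within cell groups Mir155hg was called higher in 4 of the 8. It was 2.72 in cDC2-like cells, where 3.43% of all genes were called higher, 2.62 in cDC1-like (2.59%), 1.74 in resident macrophage-like (3.57%) and 1.26 in T cell-like cells (4.4%). These values were taken over whole groups and not within clusters. The cDC2-like group held a cluster with 3 WT and 140 KO cells, whose part in the difference was not tested. Kcnq1ot1 was called higher in B cell-like cells (1.15), where 1.63% of all genes were. Mir142hg, the host gene of miR-142, was called lower in 5 groups, without being called over all kept cells. It was -1.30 in monocyte-like cells, where 8.91% of all genes were called lower, and -1.93 in cDC2-like cells (8.45%). The value was -1.76 in resident macrophage-like (8.03%), -1.45 in cDC1-like (2.92%) and -1.11 in neutrophil-like cells (9.7%). Values of Mir142hg within clusters were not taken either, and different clusters held most monocyte-like cells of each library.

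None of the 12 paraspeckle protein genes, which encode the partners of Neat1, was called, and their median log2 difference of CPM + 1 was -0.20 beside -0.24 for all genes. Sfpq differed by -0.13 and Hnrnpk by -0.06. None of 15 nuclear speckle and splicing protein genes was called, with a median of 0.16 (Srsf5 0.16, Son 0.19 and Srsf3 0.24). None of 12 nonsense-mediated decay factor genes was called, with a median of -0.16. None of 12 tested translation factor genes with a terminal oligopyrimidine tract was called, with a median of 0.16, where Tpt1 differed by 0.66. The 84 ribosomal protein genes tested had a median of 0.36 and the 13 mitochondrially encoded genes one of -0.22, and none was called.

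Within cell groups members of these lists were called. In neutrophil-like cells, where 9.7% of all genes were called lower, 6 of 12 mitochondrially encoded genes (median -0.99) and 4 of 15 nuclear speckle and splicing protein genes (median -0.61) were called lower. In the unnamed Serpinb2, Retnlg and Ccr3 cluster 6 of 12 translation factor genes were called lower (median -0.76), beside 7.77% of all genes. Beside these and the ribosomal protein genes of that cluster given above, at most 2 genes of a list were called in any of the 8 groups.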

How the data were processed

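Cells were sorted from colon, stained with 7-AAD against dead cells and made into single-cell 3′ libraries with version 3 chemistry. The authors deposited raw UMI counts per gene and barcode, filtered to cell barcodes; the file headers name Cell Ranger 3.0.2, and the submitters' processing notes name mm10 and Seurat 4. Every value here was computed from those counts. No deposited per-sample column was left unmapped.

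The study's limits on genes and mitochondrial share were applied. Counts were scaled to 10000 per cell, and 2000 variable genes, without the members, the listed long non-coding RNAs and mitochondrial genes, gave 30 principal components and Leiden clusters at resolution 1 (scanpy 1.11.5, leidenalg 0.10.2, Python 3.11.15). A cluster was named when at least 3 markers of a class were at least 2-fold raised, with no tie between classes and no other class with more markers among its 10 leading genes. Names were rebuilt and may differ from the study's. Scrublet called 1 WT and 9 KO cells, too few to have worked, and no doublets were removed. The total was 18994564 WT and 22331342 KO UMIs in kept cells.

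Levels are summed UMIs per 1000000 (CPM) with exact Poisson intervals, ratios have exact conditional binomial intervals, and shares have Clopper-Pearson intervals (SciPy 1.17.1). On Poisson counts simulated for all kept cells, 95.7% of intervals over 13857 genes held the true ratio. Of 200 genes changed by 2 on the log2 scale, 99.5% were called. The draws followed the model of the intervals and held no spread between cells or libraries, so they check the computation only. Genes needed 20 UMIs over both libraries to be counted among those tested.

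The genes named were the members, the 3 most like each member, and from each list the 3 with the most UMIs at most and any called; Snhg9, Mir155hg, Mir142hg and Kcnq1ot1 by group and Gm42418 were added after their values were seen. The members and lists were chosen with earlier results of these data known. The finer mitochondrial bins, the depth-matched split, the values within clusters and 2 of the pooled alternatives were chosen after seeing the data. The small nuclear and nucleolar RNAs, and Gas5 and Snhg8, were not analysed here. Some results for single genes are not reported here.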

Additional observations from a re-analysis of the deposited data

Results flagged for a closer look

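Malat1 differed between genotypes in opposite directions in 2 cell groups, with a log2 ratio of KO to WT of 0.36 for resident macrophage-like cells, against -0.31 for the inflammatory monocyte-like group. Neat1 did so with 1.11 in the unnamed Serpinb2, Retnlg and Ccr3 cluster and -0.54 in B cell-like cells. With 1 library per genotype the difference between groups was not tested in either case. In the Malat1 case different clusters held most of the WT and KO monocyte-like cells, and within the 2 larger ones the ratio was -0.13 and -0.18, while in the remaining 16 WT and 38 KO cells it was 0.14.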

How the results depend on the processing

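No paired analysis was possible because each genotype was 1 library. Alternatives were run for the 4 measured members, and other genes called in KO against WT have none. The pooled Malat1 log2 ratio (0.02 as reported) was 0.12 over every deposited barcode, -0.0025 under a stricter cell filter, 0.00053 over non-mitochondrial UMIs, -0.10 without mitochondrial, ribosomal protein and immunoglobulin genes in the total, 0.071 as a mean over cells, 0.067 with classes weighted equally and -0.090 without plasma cell-like, epithelial and fibroblast-like cells, so its sign was not stable. In the same order, Neat1 moved to 0.60 over every barcode, 0.42 with the reduced total, 0.74 as a mean over cells, 0.22 with equal weights, 0.58 without the small unnamed clusters and 0.28 without the plasma cell-like, epithelial and fibroblast-like groups. Snhg6 was 0.032 with equal weights, and Snhg12 -0.47 as a mean over cells and -0.26 without the 3 groups. The cause of these moves was not tested.

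By cell group, the sign of the ratio changed in 7 of 65 alternative values for Malat1, 2 for Neat1, 9 for Snhg6 and 7 for Snhg12. Malat1 stayed between 0.09 and 0.42 in resident macrophage-like and between -0.33 and -0.08 in monocyte-like cells, and Neat1 in the unnamed cluster between 1.08 and 1.25 over 3 alternatives, with no alternative clustering run for it. In B cell-like cells Malat1 ran from -0.03 to 0.28, and in T cell-like cells from 0.04 to 0.28. Neat1 ran from -0.15 to 0.08 in cDC2-like cells. Snhg12 ran from 0.0030 to 0.53 in B cell-like and from -1.16 to -0.16 in monocyte-like cells. Alternative clusterings changed the cells of a name strongly, for example 69 to 403 WT monocyte-like cells at resolutions 0.5 and 2. Depth limits the host genes most, with 2 WT and 5 KO UMIs of Snhg6 in neutrophil-like cells.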

Other observations

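Groups too small or too uneven between libraries to be compared spanned a wide range of Malat1. Fibroblast-like cells had 39737 CPM in 80 WT and 38285 CPM in 21 KO cells, and mature dendritic cell-like cells 40761 CPM in 19 WT and 28268 CPM in 41 KO cells. The 123 WT epithelial cell-like cells had 9966 CPM at a median mitochondrial share of 8.50%, and the 47 WT cells of an unnamed cluster led by Pold4 and Mrps16 had 9796 CPM. An unnamed cluster of 70 WT and 45 KO cells led by Gm26917, Ccnb1ip1 and Gm42418 had 51100 and 54767 CPM of Malat1 and 1353 and 2158 CPM of Neat1, with median mitochondrial shares of 8.49% and 7.74% and Gm42418 at 320730 and 211374 CPM.

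Low Neat1 was also measured in the other lymphoid groups, at 152 CPM in 234 WT plasma cell-like cells and at 199 and 234 CPM in 26 WT and 41 KO natural killer cell-like cells. Plasma cell-like cells, deep cells with a median of 17575.5 UMIs in WT, had 33.6 CPM of Snhg12, beside 118 CPM in WT B cell-like cells.

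The barcodes removed by the cell limits differed between libraries. As CPM of non-mitochondrial UMIs, Malat1 in removed barcodes was 1.34-fold the level in kept cells in WT and 3.39-fold in KO, and Neat1 1.49-fold and 2.86-fold. Snhg6 was 1.03-fold and 0.729-fold, and Snhg12 1.01-fold and 1.64-fold.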
